A study of Mus musculus with 12 samples.

Results

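The genes described here encode subunits and a binding partner of the voltage-gated sodium channels: the pore subunits Scn1a, Scn4a and Scn10a, the beta subunits Scn2b, Scn3b and Scn4b, and Fgf13, a fibroblast growth factor homologous factor that binds these channels inside the cell. They were chosen by name, as every probe outside the control spots whose accession maps to one of the 7 genes. Of these, 6 had a probe, and 7 of the 55585 probes read them, Scn1a by 2 probes and each of the others by 1. No accession on the array matched Scn3b in the gene table used, and it was not analysed here. After the filter on dim probes, the 6 genes were tested among 29779 genes or unnamed features.

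The arrays compared heart apex RNA of male C57BL/6J mice aged 15 weeks that carried 1 of 4 knock-in alleles of Nkx2-5, the gene of a cardiac homeobox transcription factor, always together with a + allele. The groups were Nkx2-5 control/+ (a knock-in that leaves the isoleucine in place), Nkx2-5 I183M/+ (methionine in its place), Nkx2-5 I183P/+ (proline in its place) and Nkx2-5 delta/+ (the gene deleted), with 3 arrays each. Whether the triplicates are different animals is not in the labels, and the tests therefore measure the spread between these samples, which may be technical. A knock-in allele is present in all 4 groups, and no group without one is analysed here.

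A voltage-gated sodium channel is a large pore protein that opens when the membrane depolarises and then inactivates within moments. In heart muscle it carries the fast inward current that starts the action potential and sets the speed of conduction. Beta subunits are small membrane proteins with an immunoglobulin fold that alter the gating and the surface level of the pore, and homologous factors bind its cytoplasmic tail and alter its inactivation.

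Levels are given as the log2 of a probe's processed intensity relative to the 75th percentile of its array, and differences are differences of these log2 levels, so that 1 stands for a doubling. The level of a probe is set only against the same probe on other arrays, because probes differ in brightness. The share of spots well above background was 51.2% to 75.2% on 11 arrays and 99.1% on control replicate 1, where dim probes read high and bright ones low. The differences from control are therefore also given without that array. Slide 1 held the control and I183M arrays and I183P replicates 1 and 2, and slide 2 held I183P replicate 3 and the delta arrays. As a check of the tissue, all 8 markers of ventricular muscle were well above background on all 12 arrays, with a mean level over the list of 8.47 to 8.78 on 11 arrays and 7.30 on control replicate 1. Atrial markers (5 of 5 measured, 4 above background on all arrays) varied more, with list means from -1.12 to 3.59, and both ends of that range lay in the mutant lines. Nkx2-5 itself read 3.77 to 3.92 on the delta arrays, 4.45 to 4.74 on the arrays of the other groups except control replicate 1, and 3.11 on that array. After normexp background correction and quantile normalization it read 12.77 to 12.89 in delta and 13.52 to 13.81 on all other arrays.

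None of the 6 genes passed in any of the 6 comparisons in limma (Benjamini-Hochberg adjusted p under 0.05 over all 29779 features). Over all features the share that passed was 0% in I183M versus control, 0.00336% in I183P versus control and 0.0739% in delta versus control. It was 0% in I183P versus I183M, 0% in delta versus I183M and 0% in delta versus I183P. At an unadjusted p under 0.05 there was 1 of 6 members in I183M versus control (Scn4b, against 1.46% of all features), 1 in I183P versus control (Scn4b, against 5.18%) and 2 in delta versus control (Scn4b and Scn10a, against 7.36%). Among mutant lines it was Scn10a in delta versus I183M (against 3.51%) and no member in I183P versus I183M (1.28%) or delta versus I183P (2.78%). The 2 groups did not overlap for 0 of 6 members in I183M versus control (3.73% of all features), 1 in I183P versus control (12.8%), 2 in delta versus control (13.6%), 1 in I183P versus I183M (24.4%), 2 in delta versus I183M (17.3%) and 1 in delta versus I183P (19.4%). The non-overlapping members were Scn4b in those 5 comparisons, and Scn10a in both comparisons of delta with control and with I183M. A count of 1 or 2 in 6 lies near several of these shares and is not read as a result about the members as a group.

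Scn4b showed the largest differences from control among the members with all 12 arrays in the fit: its mean level was lowest in control and higher in I183M, delta and I183P, in that order. The gene encodes a beta subunit that is joined to the pore by a disulphide bond, and whose cytoplasmic end can block the open pore. Its probe (A_66_P112495, for NM_001013390 on chromosome 9) was well above background on all 12 arrays. The level was 2.45, 4.24 and 3.54 on the 3 control arrays. It was 4.52, 4.42 and 4.20 on the I183M arrays. On the I183P arrays it was 5.31, 5.27 and 5.07. The delta arrays lay between those of I183M and I183P and read 5.01, 4.80 and 4.98. All I183P arrays were thus above all delta arrays, all delta arrays above all I183M arrays, and only control replicate 2 reached into the I183M range.

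The promoter of Scn4b is shown here because Scn4b had the largest difference of the members that were well measured, and that of Scn2b because it is the neighbouring gene. In the RefSeq table of assembly GRCm38.p6 the starts of both genes lie 20748 bases apart on the same strand of chromosome 9, with no gene starting between them. Each window runs from 250 bases before the annotated start to 50 bases after it, at chr9:45138374-45138673 (+) for Scn4b and chr9:45117626-45117925 (+) for Scn2b. Capitals would mark AAGTG, the core of the motif bound by Nkx2-5 and its relatives, on either strand, and neither window holds it.
Scn4b: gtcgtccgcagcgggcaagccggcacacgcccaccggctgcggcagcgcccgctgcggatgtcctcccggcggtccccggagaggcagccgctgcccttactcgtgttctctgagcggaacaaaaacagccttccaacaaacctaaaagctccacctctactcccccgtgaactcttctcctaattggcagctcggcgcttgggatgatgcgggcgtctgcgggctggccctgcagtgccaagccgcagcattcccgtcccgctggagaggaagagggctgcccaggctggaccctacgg
Scn2b: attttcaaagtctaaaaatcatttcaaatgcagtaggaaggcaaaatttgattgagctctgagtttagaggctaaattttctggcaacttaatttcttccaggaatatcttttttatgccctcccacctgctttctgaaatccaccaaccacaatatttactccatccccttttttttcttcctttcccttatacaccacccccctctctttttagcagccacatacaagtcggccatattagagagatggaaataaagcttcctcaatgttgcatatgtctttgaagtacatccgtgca
Among all 32851 promoter windows of the table, 46.4% hold AAGTG on either strand, 11.5% hold the longer TNAAGTG, which contains it, and 13.7% hold the T-box motif AGGTGT. Neither of the other 2 motifs is in the windows of Scn4b and Scn2b. This says only that these letters are not in these windows.

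Mean Scn4b levels were 3.41 ± 0.90 (SD, n = 3) in control, 4.38 ± 0.17 in I183M, 5.22 ± 0.13 in I183P and 4.93 ± 0.12 in delta. I183P exceeded control by 1.81 (SE 0.38, 95% interval 0.97 to 2.65), a ratio of 3.51, with a limma adjusted p of 0.491. Delta exceeded control by 1.52 (95% interval 0.68 to 2.36), a ratio of 2.87, with an adjusted p of 0.308, and I183M exceeded it by 0.97 (95% interval 0.13 to 1.81), with an adjusted p of 0.879. Ordered by p, Scn4b was number 48 of 29779 features in I183P versus control, 246 in delta versus control and 236 in I183M versus control. The exact two-sided permutation p was 0.1 for I183P and delta, the smallest that 3 against 3 arrays allow, and 0.2 for I183M (n = 3). The 3 comparisons share the control arrays.

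Between the mutant lines, Scn4b in I183P exceeded I183M by 0.84 (95% interval -0.00 to 1.68), delta exceeded I183M by 0.55 (95% interval -0.29 to 1.39) and delta was below I183P by a difference of -0.29 (95% interval -1.13 to 0.55). In each the arrays did not overlap, the exact permutation p was 0.1 (n = 3) and the adjusted p was 1. The SE of 0.38 is common to all comparisons of the gene and includes the wide control group. With control replicate 1 left out of the fit it was 0.18 between mutant lines, and the adjusted p values were 0.486, 0.297 and 0.499.

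**Figure D1:**
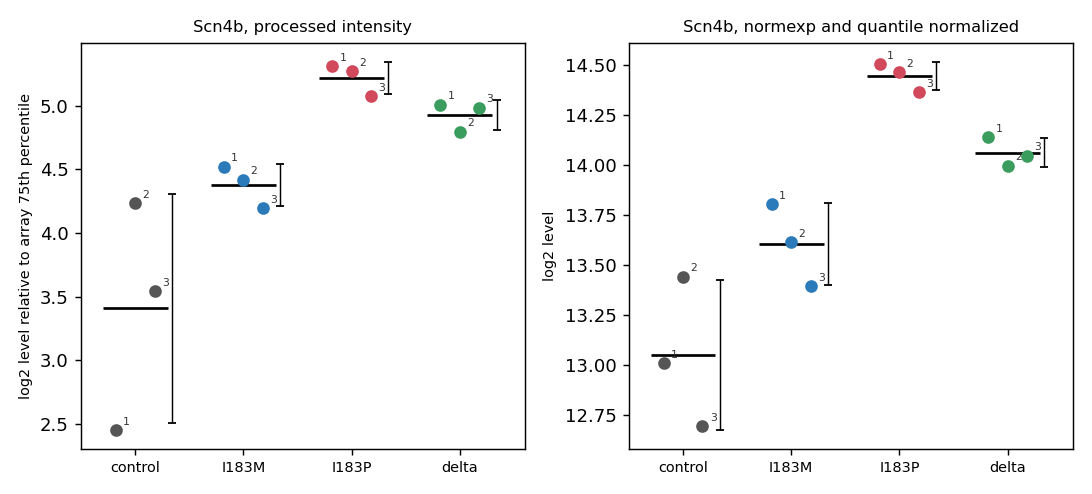
Scn4b level on each array, as log2 relative to the array's 75th percentile (left) and as log2 after normexp background correction and quantile normalization (right), in control, I183M, I183P and delta. Points are arrays with their replicate number, lines are means and bars show the SD over 3 arrays. Control replicate 1 lies lowest on the left at 2.45, and the 3 I183P arrays lie highest in both panels.

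Control replicate 1 had much weight in the size of these differences. Without it the control mean of Scn4b was 3.89, and the differences were 0.49 for I183M, 1.33 for I183P and 1.04 for delta, with limma adjusted p values of 0.726, 0.139 and 0.0936. After normexp background correction and quantile normalization, the control arrays read 13.01, 13.44 and 12.69, so that control replicate 1 lay between the others. The I183M arrays read 13.80, 13.61 and 13.39, the I183P arrays 14.50, 14.46 and 14.36, and the delta arrays 14.14, 14.00 and 14.04. The order of the groups was again control, I183M, delta and I183P, and I183P lay above control by 1.40 (adjusted p 0.0824), delta by 1.01 (0.0966) and I183M by 0.56 (0.820). Scn4b was then number 5 of 29779 by p in I183P versus control.

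Scn4b passed in limma under a few settings only. With array quality weights, which gave control replicate 1 almost no weight and whose fit stopped before it converged, I183P versus control was 1.63 (adjusted p 0.00517, with 0.379% of features passing), delta versus control 1.32 (0.0375, with 0.262%) and I183P versus I183M 0.98 (0.00423, with 6.66%). The weights of replicates 1, 2 and 3 were 0.0121, 0.352 and 2.26 in control and 0.560, 2.78 and 6.79 in I183M. The weighted means of both groups thus rested mostly on replicate 3, the lowest I183M array for Scn4b. Control replicate 3 read 3.54 for Scn4b, against 4.24 on control replicate 2 and 2.45 on control replicate 1. With normexp and quantile normalization and without control replicate 1, delta versus control was 0.99 (adjusted p 0.0490, with 0.944% of features passing). Over all alternatives the adjusted p of Scn4b lay between 0.00517 and 0.754 in I183P versus control, between 0.0375 and 1 in delta versus control and between 0.00423 and 1 in I183P versus I183M. The sign of its difference was the same in all 113 alternatives of the 6 comparisons.

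**Figure D2:**
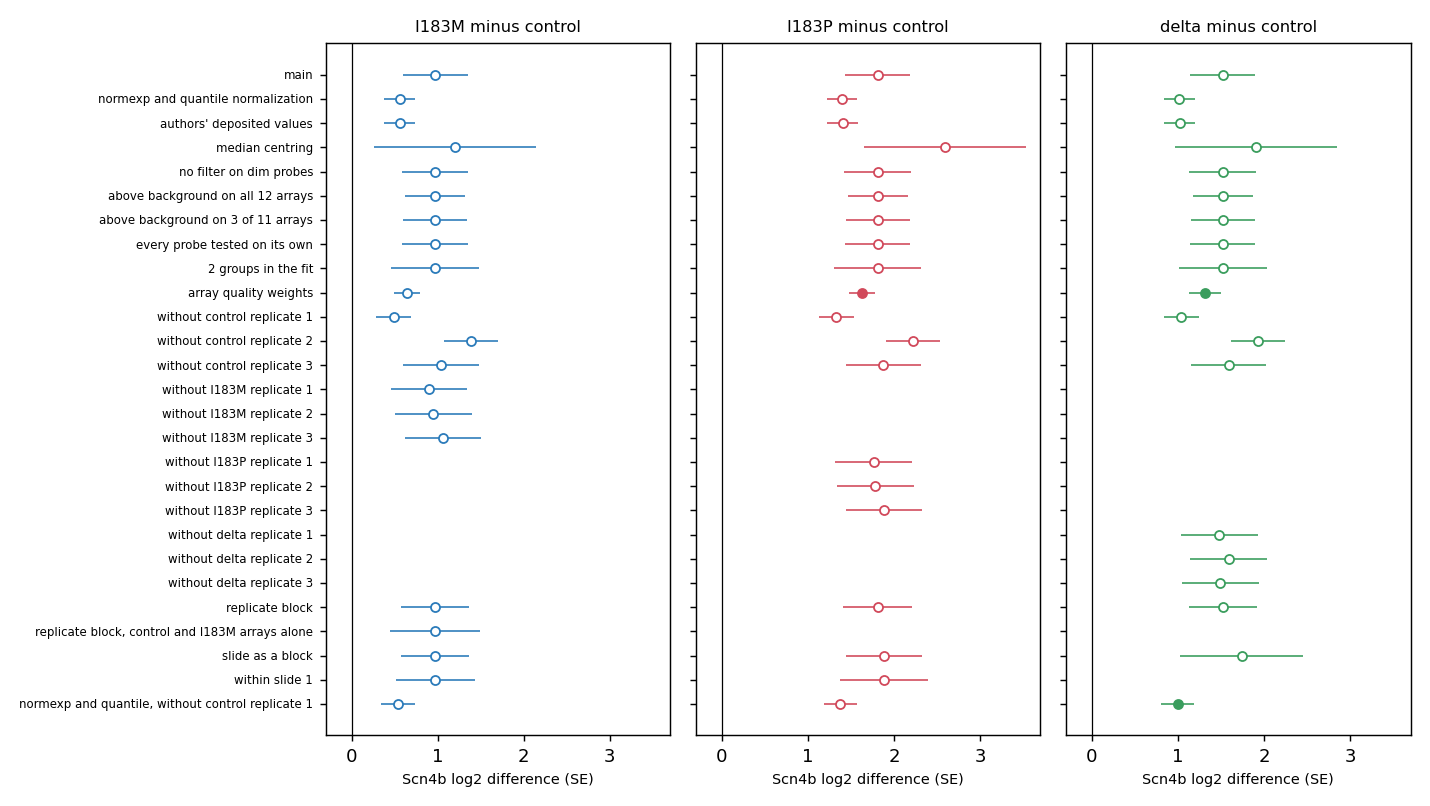
Difference of the Scn4b log2 level from control in I183M, I183P and delta under each processing setting (rows), with bars of 1 SE. Filled points passed an adjusted p of 0.05. All points lie above 0, between 0.49 and 1.38 for I183M, 1.33 and 2.59 for I183P and 0.99 and 1.93 for delta.

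The I183P arrays were spread over both slides. Within slide 1, Scn4b in I183P versus control was 1.88 and I183P versus I183M 0.91 (limma adjusted p 0.750 and 1), and within slide 2, which held 1 I183P array, delta versus I183P was -0.14. No slide held both delta and control, and none held both delta and I183M, so neither difference could be taken within a slide. With the slide as a block, delta versus control was 1.74 (SE 0.72, adjusted p 1), and I183P replicate 3, on slide 2, was the lowest of its group at 5.07.

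Markers of other cells were set beside Scn4b. The list means of ventricular muscle were 8.62 to 8.68 on control replicates 2 and 3, 8.63 to 8.78 in I183M, 8.47 to 8.75 in I183P and 8.62 to 8.69 in delta. Those of the 4 endothelial markers, all measured on every array, were 2.63 to 2.64, 2.56 to 2.73, 2.83 to 2.98 and 2.65 to 2.78 in the same order, with 1.83 on control replicate 1. The list mean was highest in I183P, as was Scn4b. With control replicate 1 left out, the endothelial markers above control were 2, 3 and 3 of the 4 in I183M, I183P and delta. Their medians were 0.03, 0.28 and 0.13, and 63.7%, 51.9% and 66.7% of all features lay above control. In I183P the marker below control was Pecam1, an adhesion protein of endothelium. Atrial markers spread from -1.12 to 2.27 over the 3 I183P arrays, on which Scn4b lay between 5.07 and 5.31. The 8 conduction markers, of which 4 were above background on all arrays, had list means of -1.88 to -1.55 on control replicates 2 and 3, -0.37 on control replicate 1, -1.94 to -1.25 in I183M, -2.27 to -1.76 in I183P and -2.19 to -1.13 in delta. With control replicate 1 left out, the conduction markers above control were 4, 2 and 4 of the 8 in I183M, I183P and delta, beside the same shares of all features. The part of endothelial, atrial or conduction cells in the Scn4b difference was not tested. In RNA of whole tissue, more cells of a type and more RNA per cell cannot be told apart.

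The genes whose levels were most like Scn4b over the 11 arrays without control replicate 1, among 13040 genes above background on all arrays, were Efnb2 (Pearson r 0.91), which encodes an ephrin ligand of arterial endothelium, Casp4 (0.90), an inflammatory caspase, and Plb1 (0.90), a phospholipase. Their Spearman coefficients were 0.91, 0.85 and 0.90. These coefficients are the highest of many and are high by choice, and the arrays share their scaling and their groups.

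Scn2b, the neighbour of Scn4b, encodes the other beta subunit that is joined to the pore by a disulphide bond. With all arrays its mean was highest in control, where that of Scn4b was lowest. Its probe (A_51_P212741, for NM_001014761 on chromosome 9) was above background on all arrays but dim. Control arrays read -1.92, -3.09 and -3.36, and I183M arrays -2.86, -2.87 and -3.38. I183P arrays read -3.78, -3.82 and -3.03, and delta arrays -3.81, -3.16 and -3.55. Control replicate 1 was the highest of all 12, as for dim probes in general, and all groups overlapped.

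Against control the Scn2b differences were -0.24 in I183M, -0.75 in I183P and -0.72 in delta (SE 0.40 each, limma adjusted p 0.931, 0.563 and 0.703). Without control replicate 1 they were 0.19, -0.32 and -0.28, and after normexp and quantile normalization 0.04, 0.08 and 0.01. With both changes they were -0.22, -0.19 and -0.26. No direction is given for Scn2b. In I183M the sign turned with the scaling and with control replicate 1. In I183P and delta it was positive on the quantile scale only with that array in the fit. The 95% interval of I183P versus control after quantile normalization was -0.41 to 0.56, on which scale the group means spanned 0.08.

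Fgf13 encodes the main homologous factor of mouse ventricular muscle. Its probe (A_55_P2139809, for NM_010200 on chromosome X) was well above background on all arrays. Control arrays read 0.26, 0.95 and 1.30, and I183M arrays 0.76, 0.95 and 1.18. I183P arrays read 1.46, 1.38 and 0.53, and delta arrays 1.26, 1.26 and 0.87. The groups overlapped in all comparisons, and the lowest array was control replicate 1.

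The mean of Fgf13 was 0.84 ± 0.53 (SD, n = 3) in control, 0.96 ± 0.21 in I183M, 1.12 ± 0.51 in I183P and 1.13 ± 0.23 in delta. Against control this gave differences of 0.13, 0.29 and 0.29 (SE 0.33 each, limma adjusted p 0.976, 0.599 and 0.812). Without control replicate 1 they were -0.16, -0.00 and 0.01, with 95% intervals from -0.83 to 0.50, -0.67 to 0.66 and -0.66 to 0.67. Within I183P, replicate 3, the array on slide 2, read 0.53 against 1.46 and 1.38 on slide 1.

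Scn10a encodes a pore subunit best known from sensory neurons, which has also been described in heart tissue and in neurons of the heart. With all 12 arrays it was the only other member with groups that did not overlap: all 3 delta arrays read below all control and all I183M arrays. Its probe (A_55_P2109397, for NM_001205321 on chromosome 9) was above background on all 12 arrays. Control arrays read -1.12, -0.84 and -0.73, and I183M arrays -1.20, -0.55 and -0.68. I183P arrays read -1.45, -0.77 and -1.61. Delta arrays were the lowest, at -1.50, -1.39 and -2.29, and overlapped those of I183P.

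The Scn10a promoter is shown because delta had the lowest level of the gene and because its window holds AAGTG 1 time, in capitals, beginning at base 32 when the annotated start is counted as base 1. It lies at chr9:119718983-119719282 (-) in GRCm38.p6 and holds neither TNAAGTG nor AGGTGT.
Scn10a: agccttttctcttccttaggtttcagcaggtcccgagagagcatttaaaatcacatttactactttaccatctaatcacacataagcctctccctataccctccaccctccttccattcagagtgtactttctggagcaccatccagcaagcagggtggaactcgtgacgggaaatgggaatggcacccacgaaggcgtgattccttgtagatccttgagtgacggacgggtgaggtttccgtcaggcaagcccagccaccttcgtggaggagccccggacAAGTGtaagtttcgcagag
AAGTG is in 46.4% of all windows, so its presence in 1 of them is a description and not a site. Of the other members, the window of Scn1a holds AAGTG 2 times, 1 of them within TNAAGTG, that of Scn4a holds none of the 3 motifs, and 2 of the 4 windows of Fgf13 hold AAGTG 1 time each.

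Delta was below control for Scn10a by a difference of -0.83 (SE 0.32, 95% interval -1.55 to -0.10), a ratio of 0.563, with a limma adjusted p of 0.614. Delta was below I183M by -0.91 (95% interval -1.64 to -0.19, adjusted p 1), and below I183P by -0.45 (95% interval -1.18 to 0.28, adjusted p 1). The exact permutation p was 0.1 for the first and the second of these (n = 3), the smallest possible, and 0.5 for the last. I183P versus control was -0.38 and I183M versus control 0.09 (adjusted p 0.563 and 0.990). Ordered by mean, delta was lowest and I183P next, and the control and I183M means, -0.90 and -0.81, differed by less than their SDs of 0.20 and 0.35.

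Without control replicate 1, delta versus control was -0.94 (adjusted p 0.259) for Scn10a. The normexp and quantile scale gave -0.18 (adjusted p 0.834). There control replicate 1 read 7.15, and control replicates 2 and 3 read 8.66 and 8.72. The delta arrays read 8.21, 8.13 and 7.64 on that scale and overlapped control. Without that array on the same scale the difference was -0.70 (adjusted p 0.187). The sign of delta versus control held in all 18 alternatives, where it came nearest to 0 at -0.17, and it was -0.55 without delta replicate 3. That of I183P versus control turned, to 0.13 after quantile normalization, 0.15 in the authors' deposited values and 0.41 with median centring. With the slide as a block, delta versus control was -0.32 (adjusted p 1), and within slide 2, with its 1 I183P array, delta versus I183P was -0.11.

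Beside Scn10a stand the neuronal markers, of which 8 of 9 were measured and 5 were above background on all arrays. Their list means were -1.67 to -1.35 on control replicates 2 and 3, 0.08 on control replicate 1, -1.03 to -0.52 in I183M, -1.75 to -1.17 in I183P and -1.57 to -0.35 in delta. Dbh, the enzyme that makes noradrenaline in sympathetic nerves, read 0.48, 2.20 and 2.09 in control, 1.05, 2.85 and 2.84 in I183M, 1.87, 2.35 and 1.82 in I183P, and 1.65, 1.22 and -0.88 in delta. Of all arrays, delta replicate 3 was the lowest for both Scn10a, at -2.29, and Dbh. Th, another marker of the list, was not lower in delta. It read 0.62, 0.67 and 0.58 there, and -0.47, 0.38 and 0.62 in control. Over the whole list, 4 of the 8 markers were above control in delta with all arrays (median -0.17), beside 52.2% of all features (median 0.04). Without control replicate 1 it was 7 of 8 (median 0.58), beside 66.7% (median 0.16). Whether nerve content accounts for any of the Scn10a difference was not tested.

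The levels most like those of Scn10a over the same 11 arrays belonged to Ces1d, a carboxylesterase (r 0.95, Spearman 0.94), Abracl (0.94 and 0.90) and Sugp2 (0.94 and 0.93). They are again the highest of 13040 coefficients. By the same measure the nearest to Fgf13 were Zfp62 (0.91), Cox14 (0.90) and Pbx3 (0.90), to Scn2b Sla (0.91), Mphosph9 (0.87) and Caml (0.86), and to Scn4a Pfn4 (0.86), Rhod (0.85) and Rab40b (0.84).

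Scn4a, the pore subunit of skeletal muscle, had the most even levels of the members on this scale. Its probe (A_55_P2010454, for NM_133199 on chromosome 11) was above background on all arrays. Control arrays read -0.76, -0.44 and -0.52, I183M arrays -0.52, -0.75 and -0.66, I183P arrays -0.61, -0.54 and -0.66, and delta arrays -0.81, -0.52 and -0.68. The 4 group means lay within 0.10 of each other. Differences from control were -0.07, -0.03 and -0.10 (SE 0.18 each), with 95% intervals of -0.47 to 0.33, -0.43 to 0.37 and -0.50 to 0.30 and limma adjusted p values of 0.973, 0.915 and 0.881. They were -0.17, -0.13 and -0.19 without control replicate 1 (adjusted p 0.729, 0.961 and 0.489), and control replicates 2 and 3 then lay at or above all mutant arrays to 2 decimals.

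After normexp and quantile normalization, Scn4a read 7.67 on control replicate 1 and 8.82 to 9.11 on the other arrays, so that its differences from control turned positive, at 0.31, 0.36 and 0.28. Without that array on the same scale they were -0.16, -0.11 and -0.19 (limma adjusted p 0.623, 0.810 and 0.368). Skeletal muscle markers varied beside the even Scn4a levels. Of 12 listed, 8 were measured, and their list means were -0.20 to -0.00 on control replicates 2 and 3, 0.84 on control replicate 1, 0.26 to 0.74 in I183M, 0.28 to 0.32 in I183P and 0.39 to 0.99 in delta. In each mutant line 4 of the 8 lay above control and 4 below, beside 56.7%, 48.9% and 52.2% of all features above it. Without control replicate 1 it was 5, 5 and 7 of 8 above, beside 63.7%, 51.9% and 66.7% of all features. Myl1, a light chain of fast myosin, lay between 5.63 and 6.74 on all mutant arrays, above the 2.80, 4.84 and 4.16 of the control arrays. Tnnc2, a troponin of fast muscle, read -1.66 to -1.34 in I183M and -1.94 to -1.47 in I183P, below the -1.26 and -1.22 of control replicates 2 and 3, while delta read -1.30 to -0.51 and control replicate 1 0.17. Myh4, a heavy chain of fast myosin, was above background on 3 of 12 arrays only.

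Scn1a, a pore subunit of neurons of the brain, was at the edge of detection. Its brighter probe (A_55_P2138761, for NM_018733 on chromosome 2) was above background on 1 array of each group: control replicate 1 at -1.56, I183M replicate 1 at -3.34, I183P replicate 2 at -2.21 and delta replicate 2 at -3.44. The other 8 arrays read between -7.32 and -5.35. Control replicate 1, I183M replicate 1 and delta replicate 2 were also the arrays with the largest shares of spots above background, at 99.1%, 72.8% and 75.2%, while I183P replicate 2 had 52.2%. The gene entered the test through these 4 arrays.

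Because the other arrays give only an upper bound for Scn1a, its differences from control (0.16, -0.21 and -0.84, SE 1.78, limma adjusted p 0.994, 0.938 and 0.896) have no settled direction. The 95% interval ran from -3.82 to 4.15 for I183M. All 3 differences were above 0 without control replicate 1, at 1.91, 1.53 and 0.91 (SE 1.66). The second Scn1a probe (A_55_P2138769) was above background on control replicate 1 only, at -2.27, read -6.24 to -4.79 on the other arrays and was not tested. On I183P replicate 2 the first probe read 7.83 after normexp and quantile normalization, against 6.28 to 6.84 on the other arrays, and the second probe read 6.54 there, within its range of 6.36 to 6.78.

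**Figure D3:**
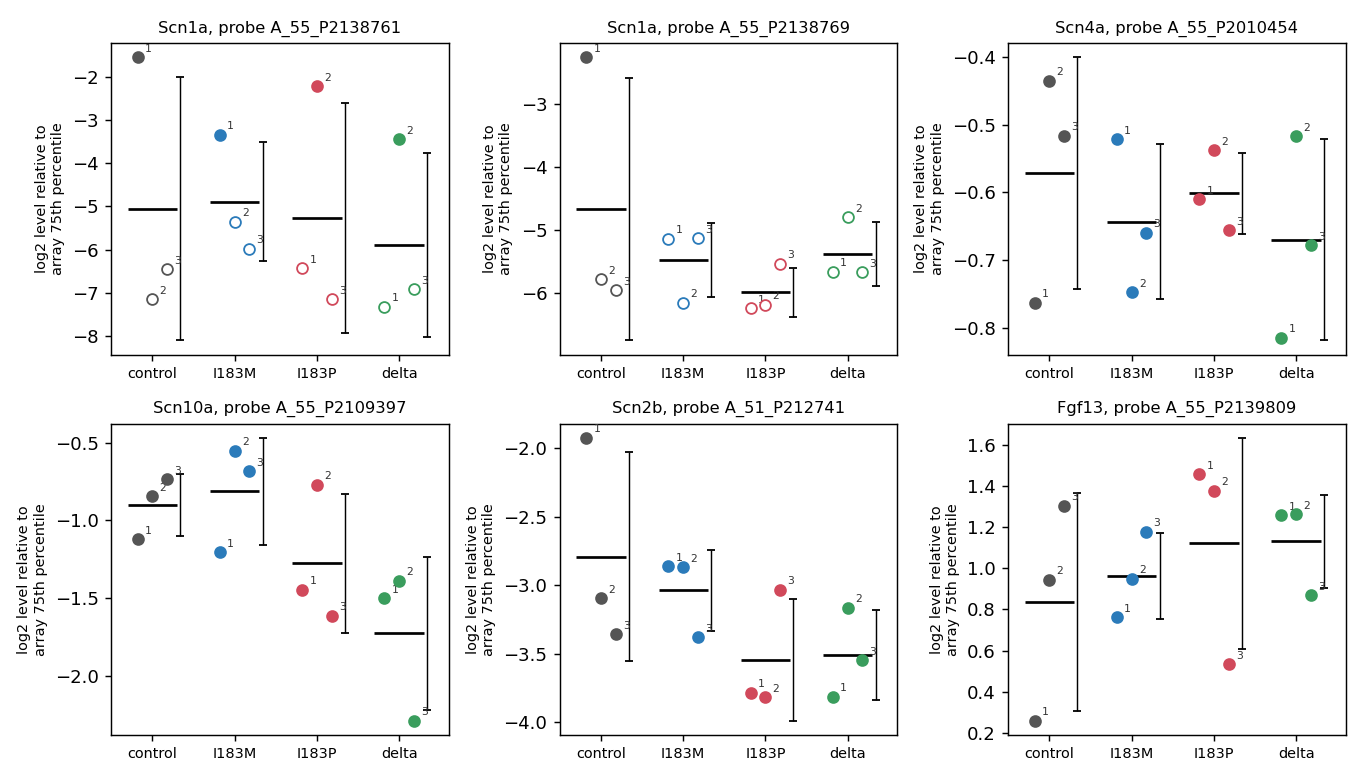
Levels of the other 6 probes on each array, as log2 relative to the array's 75th percentile, with replicate numbers, group means (lines) and SDs (bars, n = 3). Filled points were well above background and open points were not. The axes differ between panels: Scn4a runs from -0.81 to -0.44 and Scn1a, in its brighter probe, from -7.32 to -1.56.

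**Figure D4:**
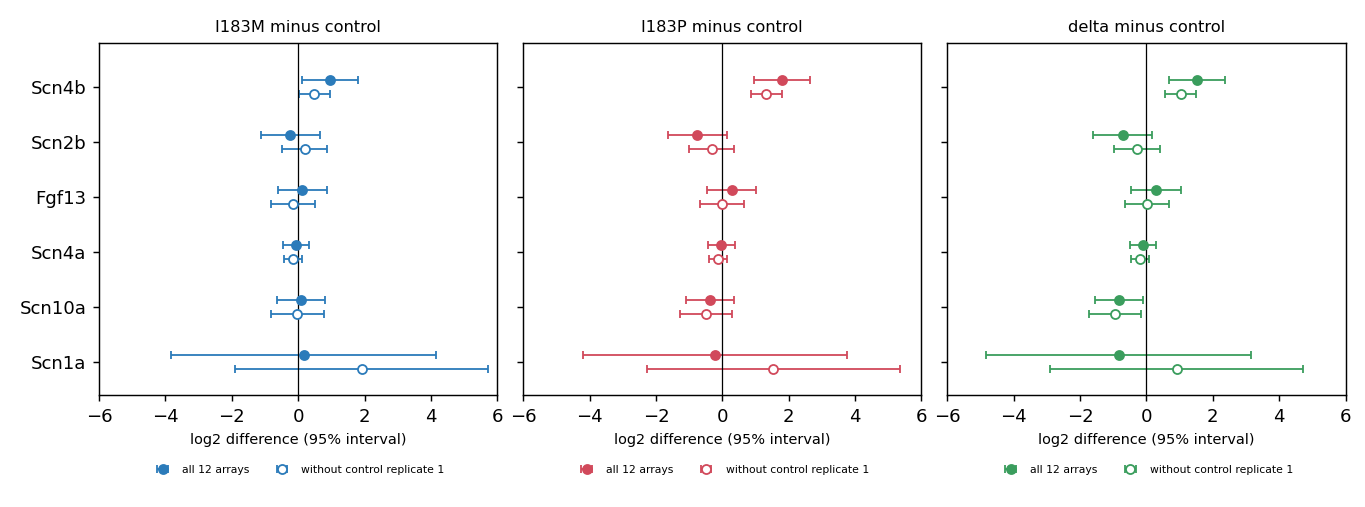
Difference of each member's log2 level from control with its 95% interval, with all 12 arrays (filled) and without control replicate 1 (open). Scn4b lies to the right of 0 in all 3 panels, Scn10a lies to the left of 0 in delta, and the intervals of the others include 0.

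The other pore subunits and partners of the channel were counted from lists of related genes, and no gene of any list passed in limma. Over all features, 56.7%, 48.9% and 52.2% of the differences from control were above 0 in I183M, I183P and delta. Of 10 pore subunits 9 were measured, and 5, 3 and 4 of them had a difference from control above 0 in I183M, I183P and delta, with medians of 0.09, -0.21 and -0.10 beside 0.11, -0.03 and 0.04 over all features. With control replicate 1 left out, 7, 5 and 6 of the 9 lay above 0, beside 63.7%, 51.9% and 66.7% of all features. After normexp and quantile normalization it was 9, 9 and 6 of the 9, beside 54.7%, 57.3% and 53.7%. Scn7a, whose product is known as a sodium sensor, read -2.35, -2.24 and -1.66 in delta and -2.84, -2.91 and -2.65 in control. These groups did not overlap, as for 13.6% of all features, and the difference was 0.72 (SE 0.29, limma adjusted p 0.638). With control replicate 1 left out it was 0.70 (adjusted p 0.350), and on the quantile scale 0.59 (adjusted p 0.598), where the groups overlapped. Scn8a, a pore subunit of brain, also present in heart muscle, lay above control by 0.44, 0.62 and 0.32. Without control replicate 1, which read 1.31 against 2.60 and 2.49, the Scn8a differences were 0.03, 0.21 and -0.10.

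Of the 4 beta subunits 3 were measured, and 1, 2 and 2 of them lay above control, with medians of -0.10, 0.13 and 0.09. The medians were 0.19, 0.21 and 0.17 without control replicate 1, with 2 of 3 above control in each line, and 0.04, 0.21 and 0.22 after normexp and quantile normalization, with all 3 above. All 4 homologous factors were measured, and 1, 2 and 1 of them lay above control, with medians of -0.21, -0.60 and -0.34. Without control replicate 1 these counts were 2, 1 and 4 (medians 0.35, -0.10 and 0.32), and on the quantile scale 2, 3 and 3 (medians -0.09, 0.16 and 0.13), so the list has no settled direction. Fgf11 and Fgf14 read highest on control replicate 1 (0.51 and -1.37). On the other arrays Fgf11 lay between -3.71 and -1.41 and Fgf14 between -4.63 and -1.95. The Fgf11 differences from control of -0.34, -1.40 and -0.87 became 0.87, -0.19 and 0.34 without that array. Fgf12, above background on 8 arrays, varied from -6.99 to -1.58 with an SE of 1.21.

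Genes of proteins that anchor or modify the cardiac channel, such as ankyrins, syntrophins and connexin, were all measured (16 of 16). Against control, 13, 14 and 13 of the 16 lay above 0 in I183M, I183P and delta, with medians of 0.41, 0.45 and 0.43. Without control replicate 1 it was 11, 12 and 11 of the 16 (medians 0.08, 0.05 and 0.11), beside 63.7%, 51.9% and 66.7% of all features. With normexp and quantile normalization it was 12, 14 and 11 (medians 0.10, 0.11 and 0.07), beside 54.7%, 57.3% and 53.7%. Gja1, which encodes the main gap junction protein of ventricular muscle, lay 0.76, 0.83 and 0.74 above control (SE 0.41, smallest adjusted p 0.563) and read 0.74 on control replicate 1 against 2.07 and 2.06 on the others. Without that array its differences were 0.32, 0.38 and 0.29. Dlg1, a scaffold protein, lay 0.41, 0.53 and 0.60 above control, and 0.10, 0.22 and 0.29 without it.

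Of other genes of sodium transport, 6 of 7 were measured and all 6 lay above control in each mutant line, with medians of 0.40, 0.38 and 0.34. Without control replicate 1 it was 2, 2 and 1 of the 6, with medians of -0.06, -0.06 and -0.08. With normexp and quantile normalization it was 3, 4 and 1, with medians of 0.02, 0.03 and -0.06.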

How the data were processed

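Per the file headers, the spots of single-colour Agilent arrays were quantified in Feature Extraction 11.0.1.1 on a probe layout of build mm9, and the deposited files hold intensity values per spot: a median intensity, a local background intensity and a processed intensity, background-corrected within each array and not normalized between arrays. The files also hold other marks of 0 or 1 per spot, set by Feature Extraction per the file headers, for spots well above background, saturated or outlying. The table of log2 values deposited by the authors (array medians 6.89 to 6.94, and a Pearson r of 0.996 against the normexp scale) was used as an alternative, and its exact steps are not given in the sources used here. Feature Extraction and limma are named in the submitters' processing notes.

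Control and outlier spots were left out, spots of a probe averaged, and log2 processed intensities set relative to each array's 75th percentile. Missing values removed 96 probes. Probes well above background on at least 3 of 12 arrays were tested, and the brightest tested probe on average stood for its gene. No spot was saturated. Accessions were named through RefSeq (assembly GRCm38.p6), and 27203 of 55585 probes received a symbol. Its promoter windows carry that build. The model of 4 groups was fitted to all 12 arrays in limma (version 3.58.1, R version 4.3.3), with Benjamini-Hochberg adjustment over 29779 features, after a test on simulated data. The number of arrays limits the precision. An exact two-sided permutation test was added for single genes.

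The members, gene lists and markers were chosen with earlier results of these data known. Named genes are the members, up to 4 genes of each list by smallest p, and up to 3 most alike genes for members above background on all arrays. Some list members are not reported here. Genes named beside these (Pecam1, Dbh, Th, Myl1, Tnnc2 and Myh4) were picked from the marker lists after their values were seen. Alternatives were normexp (offset 50, on the median and background intensities, as the files hold no mean intensity) with quantile normalization, the authors' values, median centring, other filters, each probe alone, 2 groups in the fit, array quality weights, each array left out, and replicate or slide as a block. Same-numbered control and I183M arrays deviated together (correlations of 0.79, 0.56 and 0.50 of their deviations from the group means), and no other 2 groups did in all 3 pairs. Control and delta gave -0.81, -0.81 and 0.21. Deviations from a group mean cancel within the group, so the 3 correlations are not independent. Replicate 1 had the largest share of spots above background in control and I183M, and replicate 2 in delta. Whether same-numbered arrays are matched samples cannot be told from these values. A replicate block in a fit of control and I183M alone was added after seeing the data.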

Additional observations from a re-analysis of the deposited data

How the results depend on the processing

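No member passed in 109 of the 113 alternatives of the 6 comparisons, and 1 member, Scn4b, passed in the other 4: array quality weights in I183P versus control (1 member), delta versus control (1) and I183P versus I183M (1), and normexp and quantile normalization without control replicate 1 in delta versus control (1). Leaving out each array in turn left the count at 0 in all comparisons, while the Scn4b difference ranged from 0.49 to 1.38 for I183M, 1.33 to 2.22 for I183P and 1.04 to 1.93 for delta against control. Control replicates 1 and 2 set the low and the high end of these ranges, and with control replicate 2 left out the I183P difference was 2.22. Of 672 alternative values of single members, 93 had the other sign, 34 of them for Scn1a and 0 for Scn4b, and in none of the 93 did both values exceed their SE. Centring on the median moved the median of all features to 0.33, 0.76 and 0.43 in I183M, I183P and delta versus control (0.11, -0.03 and 0.04 otherwise), so the Scn4b differences of 1.20, 2.59 and 1.90 under it stand against those shifts. In delta versus I183P the median of all features was 0.14 relative to the 75th percentile and 0.01 with normexp and quantile normalization. Same-numbered arrays deviated together in control and I183M only, which does not show that they are matched samples. A replicate block in a fit of those 2 groups was added after seeing the data. With it no member passed (0), with Scn4b at 0.97 (SE 0.52, limma adjusted p 0.974). In the other 5 pairs of groups the correlations differed in size or sign between replicate numbers. With a replicate block over all 12 arrays no member passed either, with Scn4b at 1.81 (adjusted p 0.583) in I183P versus control. The block changed no call. Scn1a and the dim homologous factors are limited by signal close to background, and no statement is made about Scn3b.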
